A study of Mus musculus with 12 samples.

Results

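The genes described here are 42 named genes of the interferon response and of nucleic acid sensing, picked by symbol from a table of 28112 expression features in mouse small cell lung cancer lines. All 42 are in the table under a single gene name, and 34 reach a mean normalized count of 10 over all libraries, the minimum used for calls. The other 8 (Isg15, Ifit3, Irf5, Oas1a, Oas2, Oasl2, Mx1 and Socs1) lie below it, and 1 of the 34, Mx2, has no adjusted p in 16T and KP1, which leaves 33 genes for those lines. RNA was sequenced in 12 samples of 3 tumor-derived lines, all Trp53-/-;Rb1-/-, grown as floating spheres in RPMI with 10% FBS. Nfib was knocked down with an shRNA (sh2) against a control shRNA (shLuc) in 16T and KP1, which the labels call Nfib high. In KP22, called Nfib low, Nfib cDNA was compared with an empty vector. The 6 groups held 2 samples each. These are labelled duplicates, and nothing says that they came from different cultures, so the p-values reflect the spread between the samples alone, which may be technical. Nfib encodes a nuclear factor I (NFI) transcription factor, and the comparisons ask which transcripts changed where it was lowered or raised.

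Cells sense foreign or misplaced RNA with helicases such as MDA5 and RIG-I, which signal through MAVS to interferon regulatory factors (IRFs) and so to the interferon genes. Secreted type I interferon binds IFNAR1 and IFNAR2, the kinases JAK1 and TYK2 phosphorylate STAT proteins, and a complex of STATs with IRF9 binds the interferon-stimulated response element (ISRE) of its target genes. SOCS proteins and USP18 damp this signal, and many tumor lines differ in how much of the pathway they keep.

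The sequences shown first are promoter stretches that hold the elements known for this pathway. They cover each gene that was called below with a log2 change of at least 0.5 in any comparison and had a match before its start, and Oasl1, which was added after its match was seen. They come from the RefSeq promoter table of build GRCm38.p6, read 5′ to 3′ on the gene's strand, with the match in capitals. The ISRE was searched as GAAA, 2 unspecified bases and GAAA, the gamma-activated site (GAS) as TTCNNNGAA, and the full NFI site as TTGGC, 5 unspecified bases and GCCAA, each on both strands. Irf1 (chr11:53769899-53769957, plus strand), Irf8 (chr8:120736162-120736238, plus strand) and Socs3 (chr11:117969487-117969545, minus strand) hold a GAS. Ifit1 (chr19:34640760-34640838, plus strand), Oas3 (chr5:120777700-120777759, minus strand), Rsad2 (chr12:26456538-26456597, minus strand) and Ifitm2 (chr7:140955973-140956032, minus strand) hold an ISRE, and Oasl1 (chr5:114923106-114923170, plus strand) holds the NFI site.
Irf1: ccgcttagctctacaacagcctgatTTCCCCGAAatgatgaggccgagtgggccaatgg
Irf8: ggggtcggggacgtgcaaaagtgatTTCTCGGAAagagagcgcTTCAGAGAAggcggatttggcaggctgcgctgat
Socs3: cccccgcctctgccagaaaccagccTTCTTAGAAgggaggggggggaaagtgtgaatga
Ifit1: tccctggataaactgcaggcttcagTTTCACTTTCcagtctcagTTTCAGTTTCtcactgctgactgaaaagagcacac
Oas3: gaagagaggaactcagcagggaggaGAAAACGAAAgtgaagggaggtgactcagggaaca
Rsad2: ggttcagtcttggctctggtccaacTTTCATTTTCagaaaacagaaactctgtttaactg
Ifitm2: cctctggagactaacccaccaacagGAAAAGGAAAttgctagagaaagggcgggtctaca
Oasl1: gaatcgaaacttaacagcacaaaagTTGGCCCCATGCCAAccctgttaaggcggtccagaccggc

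Of the 42 genes, 35 had an entry in the promoter table, which gives 250 bases before to 50 after a start, and 27025 genes had one in all. Usp18, Dhx58, Oas2, Mx1, Mx2, Parp9 and Parp14 had none. An ISRE was present in 14 of the 35 windows (40.0%) and in 1079 of all windows (3.99%), and a GAS in 11 of the 35 (31.4%) and in 9.55% of all. Irf2, Oas1a, Bst2 and Ifitm3 held both. The NFI site was found in 1 of the 35 windows, that of Oasl1, and in 12 windows of all genes (0.0444%). A shorter form without the outer T and A was again in Oasl1 alone of the 35 and in 250 of all windows (0.925%). These are matches of letters, not measured binding sites.

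**Figure D1:**
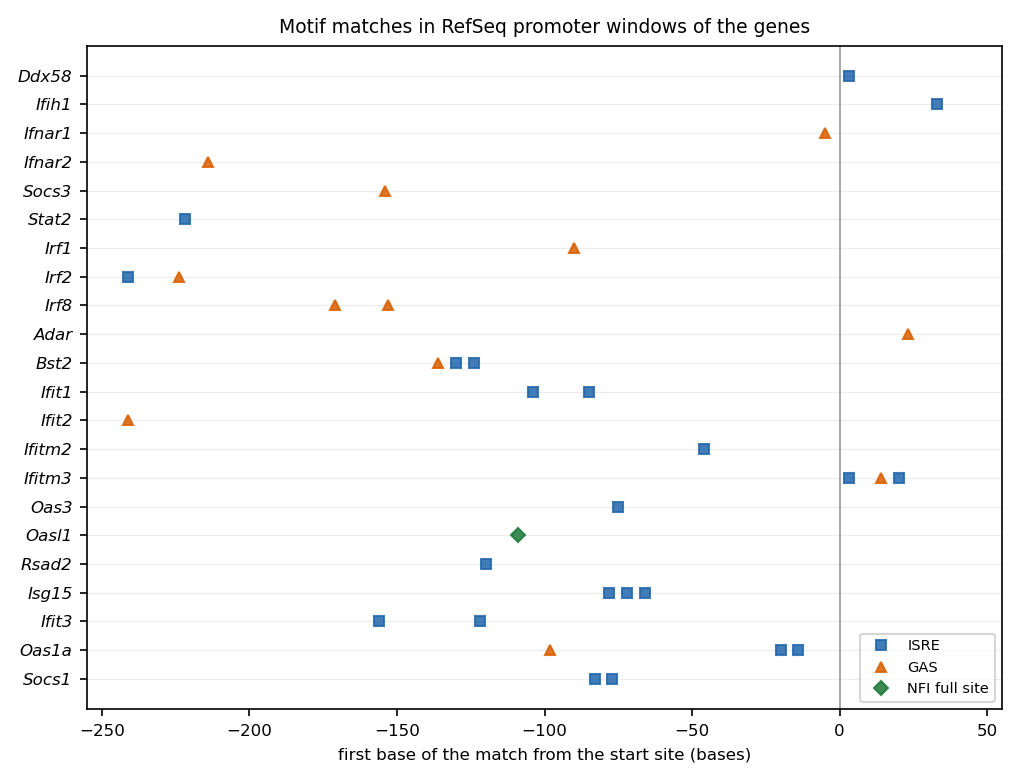
First base of each motif match (squares ISRE, triangles GAS, diamond the full NFI site) by its distance in bases from the RefSeq start site, for the 22 genes with a match. Genes with a mean of at least 10 are ordered by role, and those with lower means follow below them. Most matches lie before the start, those of Ddx58, Ifih1, Adar and Ifitm3 lie after it, and that of Ifnar1 runs over it.

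The table gives, per gene, 1 mean normalized count over all libraries and, per comparison, a log2 fold change with its SE (given after ±) and a Benjamini-Hochberg adjusted p of the authors' Wald test. The words rose and fell are used where this adjusted p is below 0.05. Values per sample and total counts were not used here, so the depth, the overlap between groups and the number of samples showing a direction are unknown. The direction of each comparison, absent from the headings, follows from Nfib itself, whose log2 fold change in the authors' deposited table stood at -1.08 for 16T, -1.32 for KP1 and 1.80 for KP22. All 8 neuroendocrine markers listed were measured, at mean counts of 5290 to 45597 in the authors' deposited table. The leukocyte genes Cd3e and Ptprc had means of 0 and 1.38 in the authors' deposited table, and 4 of 13 leukocyte markers reached 10, led by Cd68 at 157. Some genes used as stromal markers were measured, with Pdgfra at 2220 and Kdr at 495, while Col3a1 and Cldn5 were at 0 in the authors' deposited table. Kdr, a receptor gene used as an endothelial marker, fell in all 3 comparisons, with -1.48 in 16T, -1.62 in KP1 and -1.76 in KP22 per the authors' deposited table, and the other endothelial markers above the minimum, Tek and Pecam1, were not called. Its part in the results was not tested. In bulk samples, fewer cells that express a gene and less RNA per cell cannot be told apart.

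Most of the 34 genes were expressed below the typical gene of these cells. Per kb of exon, their median level was 109 normalized counts, against 490 for all 15008 features with a mean of at least 10, and 9 of the 34 lay above that median. Ifitm2, a membrane protein that restricts virus entry, stood highest at 5003 per kb in the authors' deposited table, ahead of the transcription factors Stat3 at 2320 and Irf3 at 1214. By role, the median level per kb was 547 for the 7 genes from receptors to SOCS, 325 for the 6 IRFs, 98.6 for the 5 genes around ISG15, ADP-ribosylation and ubiquitin, 43.1 for the 11 effectors and 35.6 for the 5 sensors with their adaptor. The median levels of the signalling components and of the IRFs thus lay above those of the effectors and sensors. Isg15, the ubiquitin-like protein among the best known interferon targets, had a mean of 2.43 in the authors' deposited table, and Oas2 0.64. None of 18 listed interferon ligands reached a mean of 10. Ifnl2 was highest at 1.34, and Ifnb1 and Ifng were at 0 in the authors' deposited table.

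**Figure D2:**
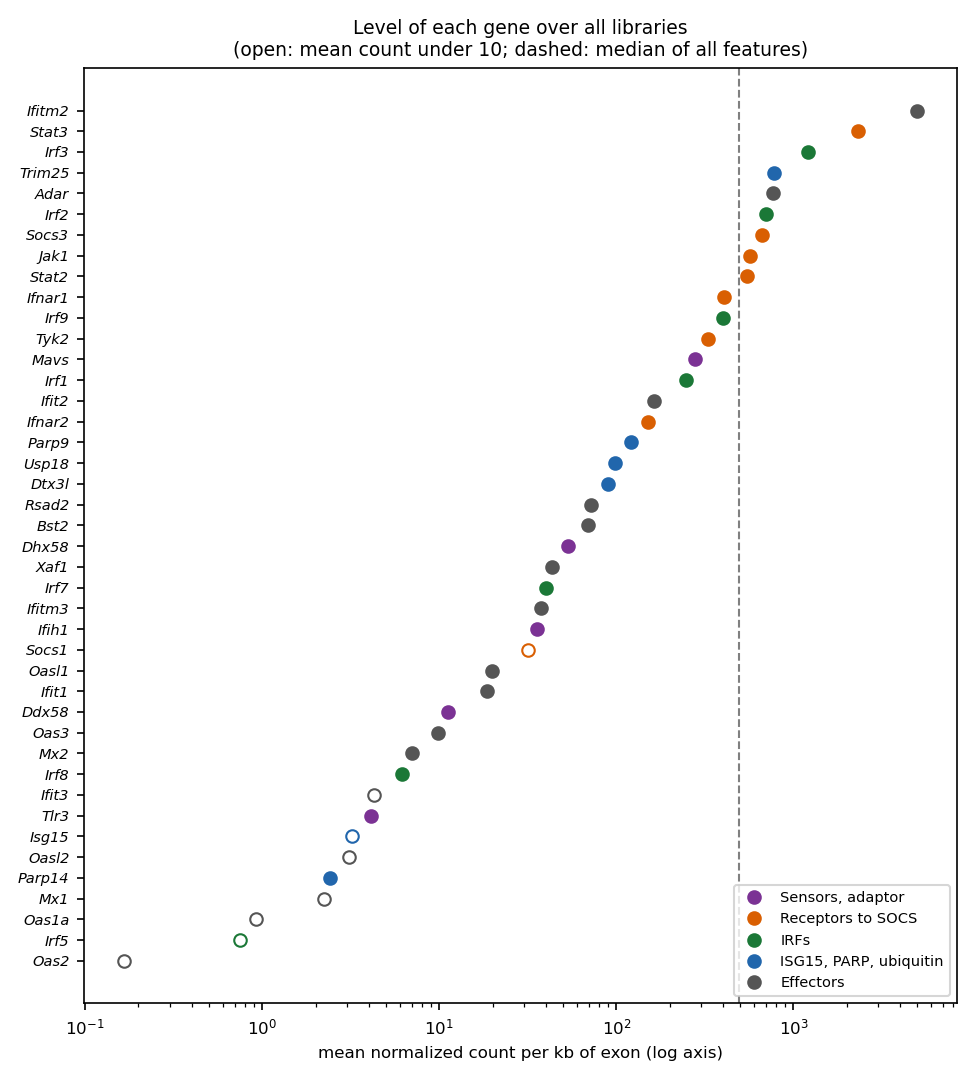
Mean normalized count per kb of exon (log axis) for each of the 42 genes over all libraries, coloured by role, with open points for means under 10 and a dashed line at the median of all features, 490. Ifitm2, Stat3 and Irf3 are highest and Oas2 is lowest.

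In 16T with the Nfib shRNA, 9 of 33 genes rose and 6 fell. The genes that rose were the ISG15 protease Usp18, the effectors Ifit1 and Rsad2, the factors Irf1, Irf2, Irf7 and Stat3, the kinase Jak1 and the inhibitor Socs3. The genes that fell were the RNA sensor Ifih1, Irf9, Xaf1, Dtx3l, Adar and the receptor chain Ifnar2. Over all 14504 features tested in 16T, 45.3% were called, 20% higher and 25.3% lower, so the share called among the 33, 45.5%, was near the background. The median log2 change was -0.01 for the 33 genes and -0.05 for all features tested. With a log2 change of at least 0.5 as well, 8 of the 33 remained, against 17.2% of all features. When a t reference with 6 degrees of freedom replaced the normal distribution, the calls of Irf7, Irf9, Dtx3l, Ifnar2 and Jak1 were lost and 10 of the 15 were kept.

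In KP1 with the Nfib shRNA, 3 of 33 genes rose, Usp18, Rsad2 and Socs3, and 6 fell, Xaf1, Parp9, Parp14, Dtx3l, Trim25 and Adar. The background in KP1 was 37.2% called, 17.6% higher and 19.6% lower, and the share called among the 33 was 27.3%. The medians were -0.03 for the 33 genes and -0.02 for all features. With a log2 change of at least 0.5 as well, 4 of the 33 remained, against 13.5% of all features. Under the same t reference, the calls in KP1 dropped to 2, Xaf1 and Socs3.

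In KP22 with Nfib cDNA, 13 of 34 genes fell and 4 rose. The genes that fell were Usp18, the sensor Ifih1 and its adaptor Mavs, Irf1, Irf2, Irf8, Stat2, Stat3, Oas3, Parp9, Parp14, Dtx3l and Ifitm2. Those that rose were Dhx58, Adar, Ifitm3 and Socs3. Over all 15008 features the background was 43.5% called, 22.4% higher and 21.1% lower, and among the 34 genes 11.8% rose and 38.2% fell. The medians were -0.30 for the 34 genes and 0.05 for all features. With a log2 change of at least 0.5 as well, 13 of the 34 remained, against 19% of all features. Under the t reference the KP22 calls of Dhx58, Mavs, Irf2 and Parp14 were lost. Among the fibroblast markers, 4 of 7 reached the minimum. In 16T 3 of them rose, in KP1 1 fell and in KP22 1 fell. Pdgfrb (mean 73.2), a receptor of mesenchymal cells, rose in 16T by 2.01 ± 0.38 and fell by 1.21 ± 0.38 in KP22 per the authors' deposited table. Pdgfra, Dcn and Col1a1 were not called in KP22, with -0.22 ± 0.25, 0.08 ± 0.44 and 0.06 ± 0.50 in the authors' deposited table. The fall in KP1 was that of Pdgfra, by 0.47 ± 0.07, and Col1a1 was called in no comparison. Col3a1 was at 0, and the part of such cells in these results was not tested.

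The authors also tested each change against an absolute log2 change of 0.5, which Usp18 and Socs3 passed in 16T, Xaf1 in KP1, and Usp18 and Irf1 in KP22.

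**Figure D3:**
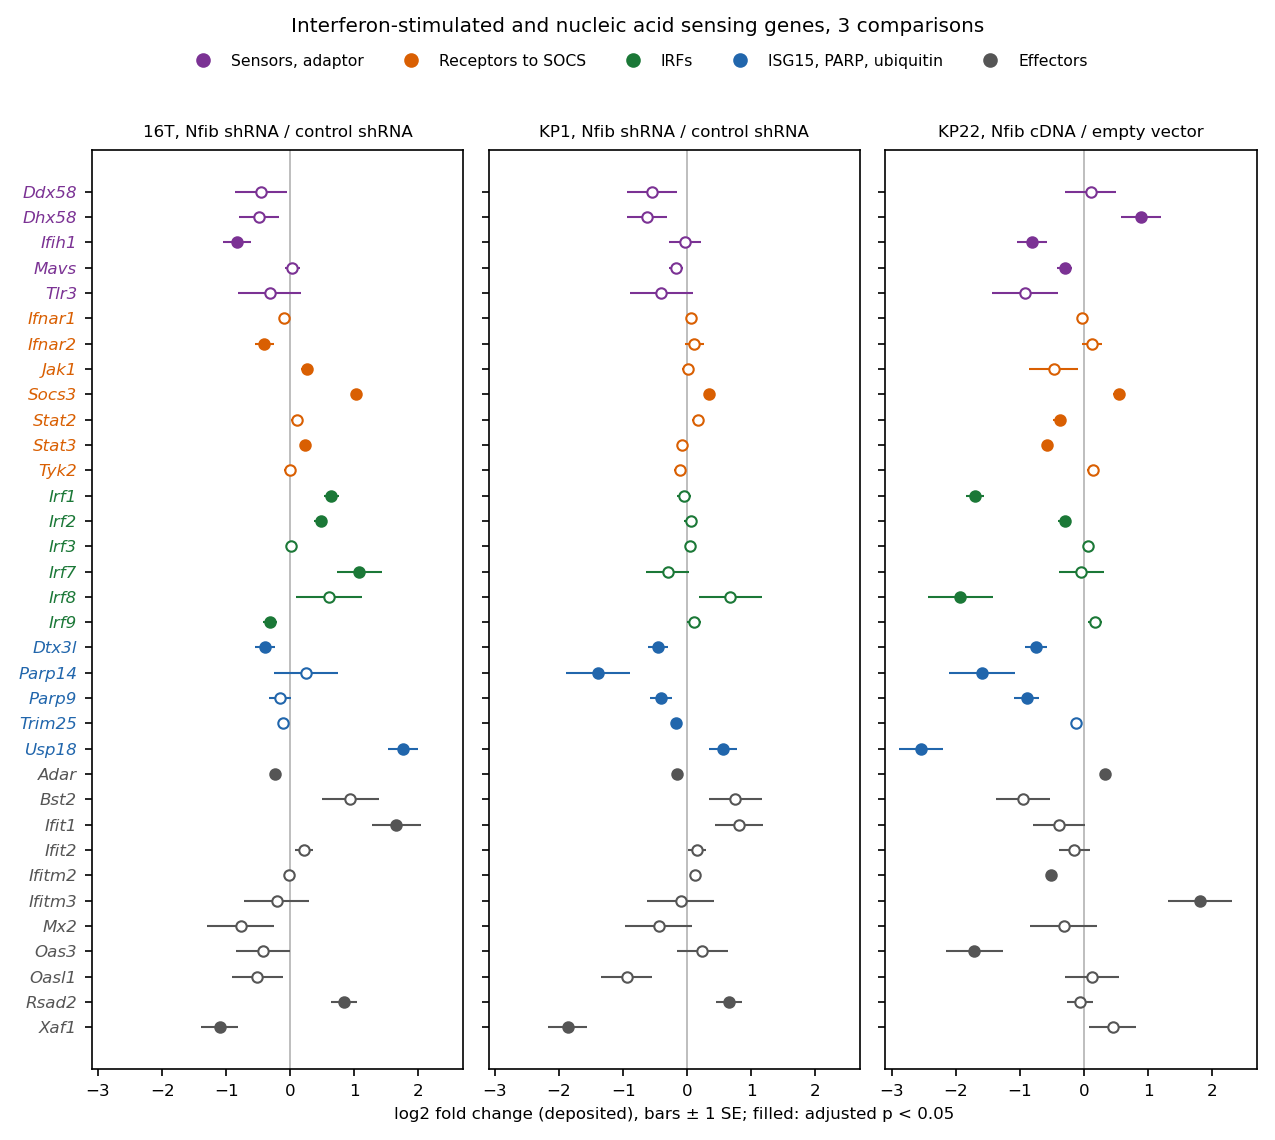
Deposited log2 fold change with 1 SE on each side for the 34 genes in 16T and KP1 (Nfib shRNA over control shRNA) and KP22 (Nfib cDNA over empty vector), coloured by role, filled where the adjusted p is below 0.05. Usp18 lies to the right in both knockdown lines and furthest to the left in KP22.

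The RNA sensors did not move as a group. Ifih1 encodes MDA5, which binds long double-stranded RNA, and spans chromosome 2, 62595793 to 62646255 (mm10), on 16 exon intervals. In the authors' deposited table Ifih1 (mean 196) fell by 0.84 ± 0.22 on the log2 scale in 16T (adjusted p = 0.000557), had -0.03 ± 0.25 in KP1 and fell by 0.82 ± 0.24 in KP22 (adjusted p = 0.00241). It was thus lower with the shRNA in 16T and lower with the cDNA in KP22. Dhx58, which encodes LGP2, a regulator of the other helicases, rose with Nfib cDNA by 0.89 ± 0.31 in the authors' deposited table (mean 129, adjusted p = 0.0145), with -0.49 ± 0.31 in 16T and -0.63 ± 0.31 in KP1. The authors' deposited table gave the adaptor Mavs (mean 803) a fall of 0.30 ± 0.12 in KP22 (adjusted p = 0.0269), a change of 0.03 ± 0.11 in 16T and one of -0.17 ± 0.11 in KP1. Ddx58, which encodes RIG-I, and Tlr3, an endosomal receptor for double-stranded RNA, passed in no comparison, with values between -0.91 and 0.10 in the authors' deposited table. Both are low in these cells, with means of 55.5 and 17.8 in the authors' deposited table, and their SEs of 0.40 to 0.51 leave wide intervals.

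Of the receptor chains and the kinase TYK2, Ifnar2 alone passed, in 16T. The authors' deposited table gave Ifnar1, a chain of the type I receptor, values between -0.10 and 0.06 at a mean of 2841, with no call. Tyk2 had values between -0.12 and 0.14 at a mean of 1524 in the authors' deposited table, also with no call. The 95% intervals of Ifnar1 ran from -0.23 to 0.19 over the 3 comparisons. Ifnar2, the other receptor chain, fell by 0.41 ± 0.15 in 16T (mean 436, adjusted p = 0.0192), with 0.11 ± 0.15 in KP1 and 0.12 ± 0.16 in KP22, per the authors' deposited table. The genes for the 2 chains neighbour each other on chromosome 16 with a gap of 79.6 kb.

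Both STAT genes fell in KP22. Stat3, which carries signals of interleukin 6 type cytokines and is the most highly counted of the 42 genes (mean 9654; chromosome 11, 100886810 to 100939511), rose in 16T by 0.23 ± 0.04 (adjusted p = 1.53e-08) and fell by 0.58 ± 0.04 in KP22 (adjusted p = 1.64e-38), per the authors' deposited table. Its value in KP1 was -0.09 ± 0.04 in the authors' deposited table, with an adjusted p of 0.0754. The KP22 change left 67.1% of the level with empty vector. Exons of Stat3 that overlap one another are held in a separate feature (mean 737), which gave 0.39 ± 0.12 in 16T, -0.15 ± 0.12 in KP1 and -0.57 ± 0.14 in KP22, as the authors' deposited table gives them. Stat2, a subunit of the complex that binds the ISRE, fell by 0.38 ± 0.09 in KP22 (mean 2404, adjusted p = 0.000323), and its values of 0.11 and 0.16 in the knockdown lines did not pass, in the authors' deposited table.

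Socs3, an inhibitor of cytokine signalling that STAT3 is known to induce, rose in all 3 comparisons. Its log2 changes in the authors' deposited table (mean 1802; chromosome 11, 117966087 to 117969366) were 1.03 ± 0.08 in 16T (adjusted p = 1.74e-37), 0.34 ± 0.08 in KP1 (adjusted p = 0.000138) and 0.54 ± 0.08 in KP22 (adjusted p = 1.42e-09). It was thus higher where Nfib was lowered and also higher where Nfib was raised, by 2.04-fold, 1.27-fold and 1.46-fold. Socs1, the other inhibitor listed, had a mean of 3.34 on its single-name interval in the authors' deposited table. Its overlapping exons (mean 53.4) gave -0.56 ± 0.38 in 16T, -0.36 ± 0.39 in KP1 and -0.41 ± 0.39 in KP22, as the authors' deposited table gives them, with no call.

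Jak1, the kinase bound to IFNAR2, rose slightly in 16T, by 0.26 ± 0.08 (mean 2086, adjusted p = 0.00714), with 0.01 ± 0.08 in KP1 and -0.47 ± 0.38 in KP22, as the authors' deposited table gives them. Its SE in KP22, 0.382, was 4.50 times that in 16T, 0.085, in the authors' deposited table. Among 8146 genes with a mean of at least 1000, this ratio was the 4th highest, where the median was 1.01 and the 99th percentile 1.62. This was looked at after the values were seen. The ratio lay between 0.871 and 1.10 for 12 genes around Jak1 on chromosome 4, 6 on each side with a mean of at least 300. In the feature that joins exons of Jak1 and its neighbour Raver2 (mean 330), the SE was 0.169 in 16T and 0.454 in KP22, as the authors' deposited table gives them. The KP22 value of Jak1 therefore has a 95% interval of -1.22 to 0.28, and whether 1 library sets this spread cannot be seen from a table without samples.

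**Figure D4:**
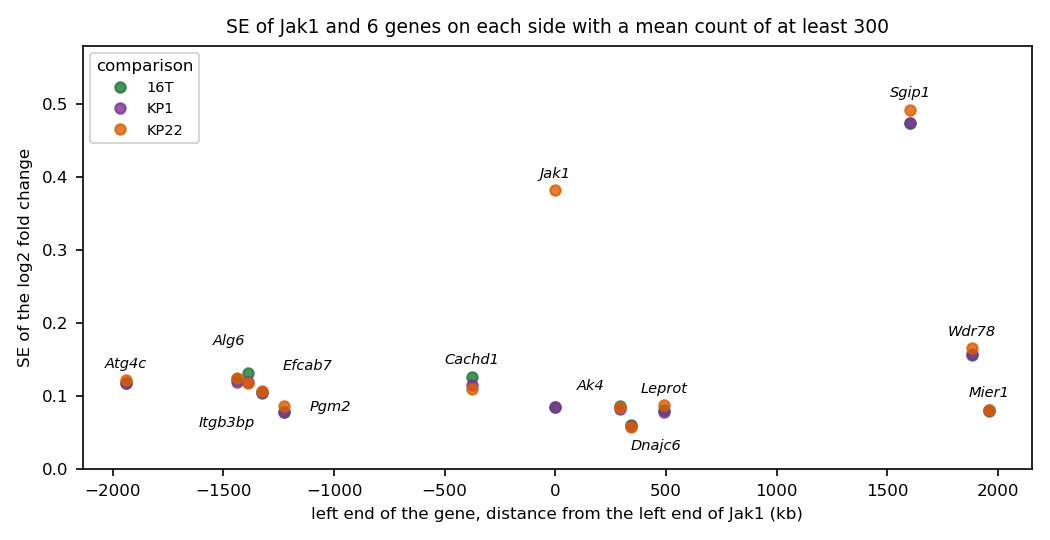
SE of the log2 fold change in each comparison (points coloured by comparison) for Jak1 and 6 genes on each side with a mean count of at least 300, by distance in kb from the left end of Jak1 on chromosome 4. The KP22 point of Jak1 at 0.382 stands above its 16T and KP1 points near 0.085, while for each neighbour the 3 points lie close together.

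Of the IRFs, Irf1 and Irf2 rose in 16T and fell in KP22. Irf1, an activator that is itself induced through STATs, lies on chromosome 11, 53770014 to 53778374, on 12 exon intervals, and its GAS is printed above. In the authors' deposited table Irf1 (mean 830) rose in 16T by 0.64 ± 0.12 (adjusted p = 2.97e-07), had -0.05 ± 0.11 in KP1 and fell by 1.70 ± 0.13 in KP22 (adjusted p = 2.58e-35). The fall in KP22 left 30.7% of the level with empty vector. Irf2, known as an antagonist of Irf1 (mean 1747), rose in 16T by 0.47 ± 0.10 (adjusted p = 1.15e-05) and fell by 0.30 ± 0.10 in KP22 (adjusted p = 0.0111), with 0.06 ± 0.10 in KP1, in the authors' deposited table.

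Irf8, a factor best known from myeloid cells and B cells, is close to the minimum at a mean of 17.4 in the authors' deposited table. It fell by 1.93 ± 0.51 in KP22 (adjusted p = 0.000718), to 26.2% of the empty vector level, with 0.60 ± 0.51 in 16T and 0.68 ± 0.50 in KP1 in the authors' deposited table. The leukocyte markers above the minimum, Cd68, Lyz2, Tyrobp and Fcer1g, had values between -0.20 and 0.17 in KP22, none called, in the authors' deposited table. Of those under it, Laptm5 (mean 9.11) had -1.12 ± 0.50 in KP22 (adjusted p = 0.0703) and Ptprc (mean 1.38) had 0.02 ± 0.30, in the authors' deposited table. The part of other cells in the fall of Irf8 was not tested. Irf7, which amplifies interferon production and is itself interferon-induced, rose in 16T by 1.08 ± 0.35 (mean 67.8, adjusted p = 0.00585), with -0.31 ± 0.34 in KP1 and -0.04 ± 0.35 in KP22, per the authors' deposited table. For the leukocyte gene Lyz2 (mean 13.4), the 16T value was 2.18 ± 0.51 with no adjusted p in the authors' deposited table, while Cd68 had 0.28 ± 0.25, and the part of other cells in these 16T values was not tested.

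Irf9, the DNA-binding partner of the STATs, fell by 0.32 ± 0.11 in 16T (mean 1081, adjusted p = 0.0137), with 0.11 ± 0.11 in KP1 and 0.17 ± 0.11 in KP22, per the authors' deposited table. Irf3, the factor that the sensors activate through MAVS, showed values between 0.01 and 0.07 at a mean of 2149 in the authors' deposited table, with SEs of 0.08. Its 95% intervals over the 3 comparisons ran from -0.14 to 0.22. Irf5 was under the minimum with a mean of 1.78 in the authors' deposited table.

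Among the enzymes around ISG15, ADP-ribosylation and ubiquitin, Usp18 had the largest changes of all 34 genes in 16T and in KP22. USP18 removes ISG15 from proteins and blocks the type I receptor at IFNAR2. In the authors' deposited table Usp18 (mean 175; chromosome 6, 121245906 to 121270917) rose in 16T by 1.76 ± 0.23 (adjusted p = 2.81e-13), rose in KP1 by 0.56 ± 0.22 (adjusted p = 0.0378) and fell by 2.55 ± 0.34 in KP22 (adjusted p = 1.74e-12). The level was thus 3.40-fold and 1.47-fold that of the control shRNA in 16T and KP1, and 17.1% of that with empty vector in KP22. Isg15, the protein that USP18 removes, had a log2 change of 0.31 ± 0.43 in 16T, -0.05 ± 0.45 in KP1 and -0.73 ± 0.38 in KP22, as the authors' deposited table gives them. It was not called, and it has no adjusted p in 16T and KP1. Usp18 and Adar were the genes called in all 3 comparisons with opposite directions of change under shRNA and cDNA, and Dtx3l and Socs3 were called in all 3 with the same direction. Of all features with an adjusted p in every line, 15.1% were called in all 3.

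Parp9, Dtx3l and Parp14, a mono-ADP-ribosyltransferase, form a cluster on chromosome 16 that spans 140 kb, and PARP9 is known to act as a complex with the ubiquitin ligase DTX3L. Dtx3l (mean 436) fell by 0.39 ± 0.16 in 16T (adjusted p = 0.035), by 0.46 ± 0.16 in KP1 (adjusted p = 0.0133) and by 0.75 ± 0.18 in KP22 (adjusted p = 0.000121), in the authors' deposited table. Parp9 (mean 358) fell by 0.41 ± 0.17 in KP1 (adjusted p = 0.0451) and by 0.89 ± 0.20 in KP22 (adjusted p = 3.29e-05), and had -0.16 ± 0.17 in 16T, in the authors' deposited table. Parp14 (mean 17.6) fell by 1.39 ± 0.50 in KP1 (adjusted p = 0.0203) and by 1.59 ± 0.52 in KP22 (adjusted p = 0.00769), and had 0.24 ± 0.50 in 16T, in the authors' deposited table. All 3 genes were thus lower with shRNA in KP1 and lower with cDNA in KP22. Recentred on the median gene, Dtx3l in 16T and Parp9 in KP1 no longer passed (adjusted p = 0.0698 and 0.0550). Parp9 and Dtx3l are 4.41 kb apart and share exon sequence in a joined feature of the authors' deposited table (mean 45.7), which was left out of both. Trim25, the ubiquitin ligase known to act on RIG-I, fell by 0.17 ± 0.06 in KP1 (mean 4330, adjusted p = 0.00857), with -0.11 ± 0.06 in 16T and -0.13 ± 0.06 in KP22 (adjusted p = 0.0504), in the authors' deposited table. Recentred on the median gene, Trim25 in KP22 passed (adjusted p = 0.00421).

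The effectors moved in both directions. Ifit1, which binds foreign RNA that lacks cap methylation, and whose pair of ISREs is printed above, rose in 16T by 1.66 ± 0.39 (mean 48.8, adjusted p = 8.38e-05) in the authors' deposited table. Its values of 0.81 ± 0.38 in KP1 (adjusted p = 0.0853) and -0.39 ± 0.41 in KP22 did not pass in the authors' deposited table. Rsad2, which encodes the antiviral enzyme viperin (mean 273), rose in 16T by 0.84 ± 0.20 (adjusted p = 0.00016) and by 0.65 ± 0.20 in KP1 (adjusted p = 0.00396), with -0.06 ± 0.20 in KP22, per the authors' deposited table. Both were higher in a knockdown line and were not called with cDNA. Ifit2, beside Ifit1 on chromosome 19, had values of 0.21 ± 0.14, 0.15 ± 0.14 and -0.15 ± 0.24 in 16T, KP1 and KP22 at a mean of 640 in the authors' deposited table.

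Xaf1, an interferon-induced gene whose product favours apoptosis and binds XIAP, fell in both knockdown lines. In the authors' deposited table the fall of Xaf1 (mean 112; chromosome 11, 72301629 to 72313733) was 1.10 ± 0.29 in 16T (adjusted p = 0.000611) and 1.86 ± 0.30 in KP1 (adjusted p = 1.04e-08), and the KP22 value was 0.45 ± 0.37. The remaining level was 46.5% of control in 16T and 27.5% in KP1. Xaf1 and Rsad2, both interferon-induced genes, thus moved in opposite directions in the same 2 lines. Adar, which edits adenosine to inosine in double-stranded RNA (mean 2502), fell by 0.23 ± 0.07 in 16T (adjusted p = 0.00203) and by 0.16 ± 0.07 in KP1 (adjusted p = 0.0488) and rose in KP22 by 0.33 ± 0.07 (adjusted p = 1.15e-05), in the authors' deposited table. The KP1 call of Adar was lost when recentred on the median gene (adjusted p = 0.0858). Part of Adar is joined with its neighbour Chrnb2 in a feature (mean 4008) that had -0.31 ± 0.06, -0.04 ± 0.06 and -0.05 ± 0.06 in the authors' deposited table, and the use of strand in counting is unknown.

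Oas3, Ifitm2 and Ifitm3 were called in KP22 and in neither knockdown line, and the difference between these effects is given further on. Oas3, which makes the second messenger that activates RNase L, and whose ISRE is printed above, fell by 1.71 ± 0.45 in KP22 (mean 46.6, adjusted p = 0.000589), with -0.42 ± 0.42 in 16T and 0.24 ± 0.40 in KP1, in the authors' deposited table. Ifitm2 (mean 3137) fell by 0.52 ± 0.07 in KP22 (adjusted p = 5.99e-13), while the related Ifitm3 (mean 24.2), on the same chromosome 53.6 kb away, rose by 1.81 ± 0.50 (adjusted p = 0.00141), in the authors' deposited table. Neither was called in the knockdown lines, where the values of Ifitm2 and Ifitm3 lay between -0.21 and 0.13 in the authors' deposited table. IFITM genes are similar in sequence, and the handling of reads that match both is unknown. Bst2, which encodes tetherin, a protein that holds budding virus at the cell surface, had 0.94 ± 0.44, 0.75 ± 0.42 and -0.95 ± 0.42 in 16T, KP1 and KP22 at a mean of 52.9 in the authors' deposited table, and passed in none of them. Recentred on the median gene, Bst2 in KP22 passed (adjusted p = 0.0394). Oasl1, whose NFI site is printed above, had -0.51 ± 0.40, -0.94 ± 0.40 (adjusted p = 0.0537) and 0.13 ± 0.41 at a mean of 42 in the authors' deposited table, and passed in none. Mx2, close to the minimum with a mean of 10.3, had values between -0.78 and -0.32 in the authors' deposited table, none called.

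The effect of the shRNA differed between 16T and KP1 for 9 of the 34 genes, tested as the difference of the deposited log2 changes. It was higher in 16T for Usp18, Irf1, Irf2, Irf7, Stat3 and Socs3 and lower for Ifih1, Irf9 and Ifnar2. The background was 29.4% of 15008 features, 14% higher and 15.5% lower. The difference for Irf7 was 1.38 ± 0.49 (adjusted p = 0.0181), that for Usp18 was 1.21 ± 0.32 (adjusted p = 0.00102), and those for Irf1 and Socs3 were 0.69 ± 0.16 (adjusted p = 0.000183) and 0.69 ± 0.11 (adjusted p = 1.78e-08). Of the 6 genes called in both lines (Usp18, Rsad2, Xaf1, Dtx3l, Adar and Socs3), all moved the same way. Of all features tested, 23.1% were called in both lines and 18.6% in both the same way. Under the t reference 3 of the 9 differences were kept, those of Irf1, Stat3 and Socs3, and those of Usp18, Ifih1, Irf2, Irf7, Irf9 and Ifnar2 were lost.

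Turned towards higher Nfib, the mean effect of the knockdown lines differed from the cDNA effect in KP22 for 15 of the 34 genes. The knockdown lines were higher for 12 of them, including all 5 measured genes around ISG15, ADP-ribosylation and ubiquitin, and lower for Rsad2, Ifitm3 and Socs3. The background was 36.7% of features, 19% higher and 17.7% lower. Parp14 differed by 2.16 ± 0.63 (adjusted p = 0.00233), Parp9 by 1.18 ± 0.23 (adjusted p = 2.2e-06) and Dtx3l by 1.17 ± 0.21 (adjusted p = 1.68e-07). Socs3 had -0.69 in the mean of the knockdown lines turned this way and 0.54 in KP22, a difference of -1.23 ± 0.10 (adjusted p = 6.54e-32). Usp18 was negative in both, at -1.16 and -2.55, and still differed by 1.39 ± 0.38 (adjusted p = 0.00115). Under the t reference 9 of the 15 were kept, and the differences of Mavs, Oas3, Rsad2, Xaf1, Parp14 and Ifitm3 were lost. The line, the vector and the direction of the change in Nfib differ together here and cannot be told apart.

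**Figure D5:**
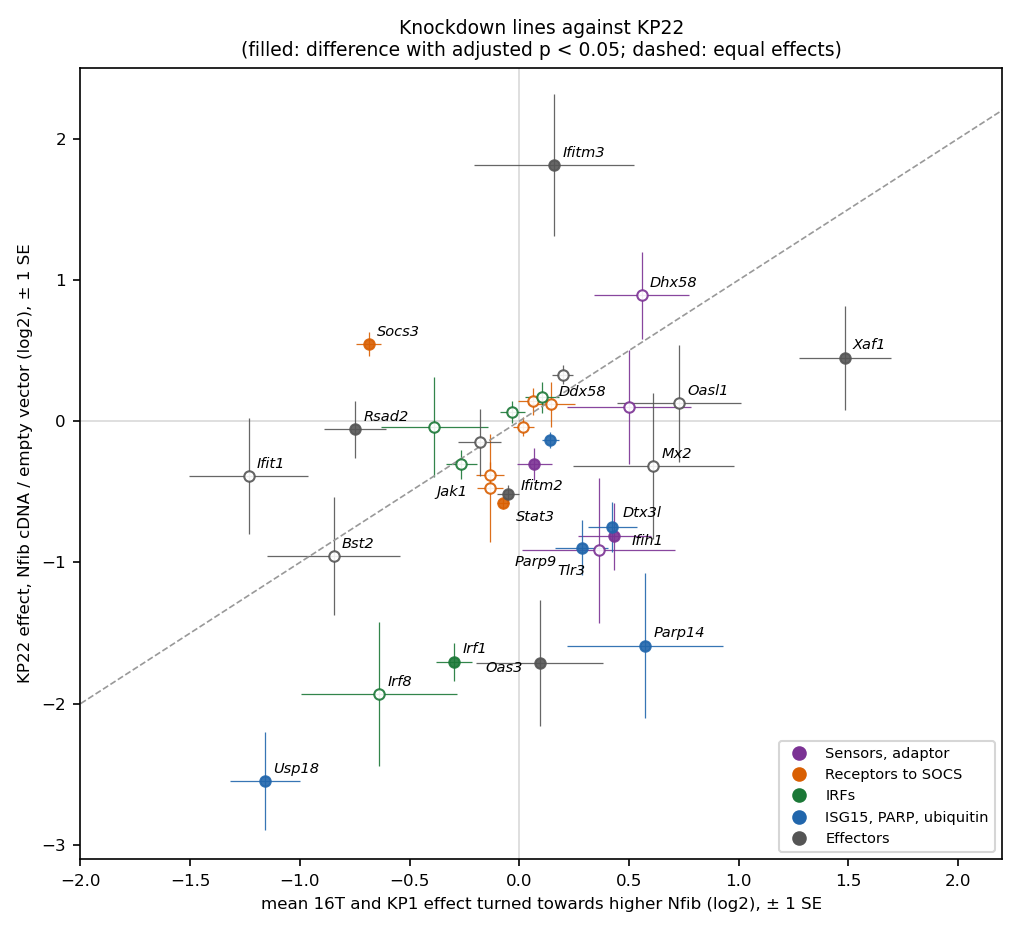
Log2 change in KP22 with Nfib cDNA (vertical) against the mean change of 16T and KP1 turned towards higher Nfib (horizontal) for the 34 genes, with 1 SE on each side, coloured by role, filled where the difference has an adjusted p below 0.05, and a dashed line of equal effects. Usp18 lies at the lower left on -1.16 and -2.55, and Socs3 lies at the upper left on -0.69 and 0.54.

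Averaged over the 3 lines and turned towards higher Nfib, 11 of the 34 genes were lower and 5 higher. The background of this average was 52.9% of features, 29.2% higher and 23.7% lower. Usp18 had the lowest mean effect, -1.62 ± 0.16 (adjusted p = 4.54e-24), and Irf8, Ifit1, Bst2, Irf1 and Rsad2 followed with means between -1.07 and -0.52. Irf2, Socs3, Stat3, Stat2 and Ifitm2 were also lower, between -0.28 and -0.21, although Socs3 rose with the cDNA. Higher were Xaf1 by 1.14 ± 0.19 (adjusted p = 4.93e-09), Ifitm3 by 0.71 ± 0.30 (adjusted p = 0.0323), Dhx58 by 0.67 ± 0.18 (adjusted p = 0.000502), Oasl1 by 0.53 ± 0.23 (adjusted p = 0.0461) and Adar by 0.24 ± 0.04 (adjusted p = 3.86e-09). Under the t reference 14 of the 16 calls were kept, and those of Ifitm3 and Oasl1 were lost. Usp18, Irf1, Stat3, Rsad2, Xaf1, Ifitm2, Ifitm3 and Socs3 also differed between the knockdown lines and KP22 in the test above. Ifitm3 had 1.81 in KP22, while its shRNA values of -0.21 in 16T and -0.10 in KP1 were not called. Of the 34 genes, 25 were called in at least 1 of the 3 lines, as were 69.4% of all 15008 features. The 9 called in none of the 3 lines were Ifit2, Ddx58, Irf3, Oasl1, Mx2, Bst2, Tlr3, Ifnar1 and Tyk2. The authors also deposited a Wald test of the mean shRNA effect over 16T and KP1, otherwise not used here. By it Bst2 rose by 0.85 ± 0.30 (adjusted p = 0.0154) and Oasl1 fell by 0.73 ± 0.28 (adjusted p = 0.0267). The other genes of the 9 were not called by it.

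A narrower list of 24 core interferon-stimulated genes within the 42 had 18 members above the minimum. In 16T 4 of its 17 tested genes rose and 4 fell, in KP1 2 rose and 4 fell, and in KP22 1 of 18 rose and 7 fell. The shares called, 47.1%, 35.3% and 44.4%, were near those of all features, 45.3%, 37.2% and 43.5%. In KP22 38.9% of the 18 core genes fell and 5.56% rose, against 21.1% and 22.4% of all features. The median log2 changes of these core genes were -0.16, -0.03 and -0.35. Of 79 further pathway genes outside the 42, 62 reached the minimum. In 16T 16 of 58 rose and 11 fell, in KP1 11 of 58 rose and 8 fell, and in KP22 4 of 62 rose and 26 fell. The shares called, 46.6%, 32.8% and 48.4%, were again near the 45.3%, 37.2% and 43.5% of all features, while in KP22 41.9% of the list fell against 21.1% of all features. Their medians were 0.12, 0.06 and -0.44.

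Among the further genes with large changes in 16T, Lgals3bp, a secreted galectin ligand, rose by 1.41 ± 0.14 in the authors' deposited table. Next in the authors' deposited table were Trim56, a ubiquitin ligase, at 1.20, Tor3a at 0.99 and the phosphatase gene Ptpn6 at 0.96, with a fall of Tdrd7 by 0.87. In KP1 the DNA sensor gene Aim2 fell by 1.31 ± 0.39 and Nmi by 0.59 ± 0.24, while Shisa5, Ifngr2, Trim56 and Rnaseh2b rose by 0.47, 0.44, 0.41 and 0.38, per the authors' deposited table. The 6 largest changes in KP22 were all falls, with -2.60 ± 0.50 for Nlrc5, an activator of MHC class I genes, -2.15 ± 0.17 for Lgals3bp, -1.75 ± 0.19 for Stat6, -1.73 ± 0.21 for Shisa5 and -1.61 for both Trim56 and Tor3a, per the authors' deposited table.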

How the data were processed

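RNA-seq of 12 samples in 6 groups of 2 was described with the authors' deposited table of comparisons and their deposited list of RefSeq exon intervals (build mm10). The labels' protocols name a Qiagen kit for the RNA and an Illumina TruSeq kit for the libraries. The submitters' processing notes name DESeq2, DESeq, bedtools and TopHat. How each was run, and in which version, is not given in the sources used here. Per the file headers, the deposited table holds 1 signal per feature (the normalized count averaged over all libraries), log2 fold changes and their SEs, a Wald score, p-values and adjusted p-values, and the same test against 0.5. Features with low means have small SEs in the deposited log2 values, as shrinkage towards 0 gives, so changes of such genes may be understated. The deposited score is the log2 fold change over its SE.

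The 42 genes and all lists were chosen with earlier results of these data known. Only features with 1 gene name were used (23226), and 15008 of them with a mean of at least 10 entered the contrasts. Differences and means of effects were computed from the deposited effects and SEs with errors added as independent. They were tested against a normal distribution with Benjamini-Hochberg adjustment over all 15008. Intervals are 95%. Genes with a called change of at least 0.5 are given in full, other called genes briefly, and of the further pathway genes at most the 6 largest called changes per comparison, of which some are not reported here. Alternatives were other minimum means, thresholds, a recentring and a t reference with 6 degrees of freedom. Depth per sample is unknown, so the precision is that of the SEs. Python 3.11.15, pandas 2.3.3, numpy 2.4.6, scipy 1.17.1 and matplotlib 3.10.9 were used.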

Additional observations from a re-analysis of the deposited data

Results flagged for a closer look

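Several genes had an effect that differed between lines by a test of the difference itself (deposited effects and SEs, normal reference, Benjamini-Hochberg adjustment over 15008 features). The shRNA effect in 16T minus that in KP1 was 1.21 for Usp18 (adjusted p = 0.00102), -0.81 for Ifih1 (adjusted p = 0.0486), 0.69 for Irf1 (adjusted p = 0.000183), 0.42 for Irf2 (adjusted p = 0.0129) and 1.38 for Irf7 (adjusted p = 0.0181). It was -0.43 for Irf9 (adjusted p = 0.0229), 0.32 for Stat3 (adjusted p = 1.07e-07), -0.52 for Ifnar2 (adjusted p = 0.0475) and 0.69 for Socs3 (adjusted p = 1.78e-08).

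The mean effect of the knockdown lines, turned towards higher Nfib, minus the cDNA effect in KP22 was 1.39 for Usp18 (adjusted p = 0.00115), 1.25 for Ifih1 (adjusted p = 8.27e-05), 0.37 for Mavs (adjusted p = 0.0252), 1.41 for Irf1 (adjusted p = 7.65e-18) and 0.50 for Stat3 (adjusted p = 3.55e-21). The same difference was 1.81 for Oas3 (adjusted p = 0.00279), -0.69 for Rsad2 (adjusted p = 0.0168), 1.03 for Xaf1 (adjusted p = 0.0408), 1.18 for Parp9 (adjusted p = 2.2e-06) and 2.16 for Parp14 (adjusted p = 0.00233). It was 1.17 for Dtx3l (adjusted p = 1.68e-07), 0.27 for Trim25 (adjusted p = 0.000305), 0.47 for Ifitm2 (adjusted p = 3.01e-07), -1.65 for Ifitm3 (adjusted p = 0.0238) and -1.23 for Socs3 (adjusted p = 6.54e-32).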

How the results depend on the processing

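With a change of at least 0.5 as well, the genes called went from 15 to 8 in 16T and from 9 to 4 in KP1, and with the authors' test against 0.5 they went to 2 in 16T, 1 in KP1 and from 17 to 2 in KP22, as these are stricter calls. At an adjusted p of 0.01 they went to 4 in KP1 and, for 16T minus KP1, from 9 to 4. With a t reference on 6 degrees of freedom they went to 2 in KP1, to 3 for 16T minus KP1 and from 15 to 9 for the knockdown lines against KP22. Of 100 values of single genes, recentring on the median gene left 95 on their side of the threshold, 3 no longer passed and 2 newly passed; with the t reference 84 stayed and 16 no longer passed, and no called value changed direction under either. Recentring moved the uncalled values of Ifitm2 and Tyk2 in 16T across 0, from -0.03 to 0.02 and from -0.01 to 0.05. As deposited, 44.2%, 47.4% and 51.5% of all called features in 16T, KP1 and KP22 were higher, and recentred 53.9%, 52.0% and 43.5%. The larger side of the background thus changed with recentring in each line. Among the 34 genes these shares were 60%, 33.3% and 23.5% as deposited and 64.3%, 42.9% and 21.1% recentred. No paired analysis was possible because the deposited table used has no columns for single samples (the labels also name a table of counts, not used here), and leaving out replicates was not run for the same reason. Low means limit Tlr3, Irf8, Parp14, Ifitm3 and Mx2, whose SEs are near 0.5.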

Other observations

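Genes of the DNA sensing branch, chosen after their values were seen, did not move together. The sensor cGAS (Mb21d1) fell in 16T by 0.56 ± 0.10 (adjusted p = 1.99e-07) and rose in KP1 by 0.36 ± 0.10 (adjusted p = 0.000994) and in KP22 by 0.45 ± 0.10 (adjusted p = 3.92e-05), in the authors' deposited table. Its adaptor STING (Tmem173) rose in 16T by 0.47 ± 0.12 (adjusted p = 0.000222) and fell in KP22 by 1.16 ± 0.14 (adjusted p = 1.75e-16), with -0.27 ± 0.11 in KP1 (adjusted p = 0.0568), in the authors' deposited table. In both 16T and KP22 the sensor and the adaptor thus moved in opposite directions.

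The subunits of RNase H2, which removes ribonucleotides from DNA, all fell in 16T, Rnaseh2a by 0.30 ± 0.06, Rnaseh2b by 0.28 ± 0.07 and Rnaseh2c by 0.40 ± 0.10, in the authors' deposited table. With Nfib cDNA in KP22, Rnaseh2a rose by 0.47 ± 0.06 and Rnaseh2b by 0.34 ± 0.07, and Rnaseh2c had 0.18 ± 0.10 (adjusted p = 0.139), in the authors' deposited table. In KP1 Rnaseh2b rose by 0.38 ± 0.07 (adjusted p = 1.75e-07), and Rnaseh2a with -0.07 ± 0.06 and Rnaseh2c with 0.04 ± 0.10 were not called, per the authors' deposited table. The RNA-activated kinase PKR (Eif2ak2) fell in 16T by 0.57 ± 0.11 and in KP1 by 0.29 ± 0.11 (adjusted p = 0.0256), and its value in KP22 was -0.22 ± 0.11 (adjusted p = 0.104), in the authors' deposited table.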
